A study of Mus musculus with 16 samples.

Results

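The 45 genes described here encode the machinery that licenses replication origins, builds and runs the replication fork, supplies it with nucleotides and packs the new DNA into chromatin. They were chosen by name, from the parts of this machinery, and each of the 45 was found on its own line of both expression tables, among 55471 lines in all. The measurements are polyA RNA-seq libraries of neural stem cells (NSC) grown as monolayers from the cortices of C57BL/6 embryos at E15 to E16, with the embryos of both sexes pooled. NSC received lentivirus with a scramble shRNA (shRNA CON, the control) or with an shRNA against the lncRNA RUS (shRNA RUS, the knockdown) after seeding, and were collected on day 5, when bFGF was withdrawn to start differentiation, or on day 7. Each shRNA and day had 4 libraries, 16 in all, the knockdown rests on 1 shRNA, and every culture had therefore been transduced. The labels call the libraries of a group replicates and do not say which cultures or pools of embryos they came from, so the p-values measure the spread between these samples, which may be technical.

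DNA is copied once per cell cycle, in S phase. In G1 the origin recognition complex, Cdc6 and Cdt1 place the ring of Mcm2 to Mcm7 on DNA, which licenses an origin, and geminin (Gmnn) blocks Cdt1 until the next G1. Cdc45, the GINS complex and Mcm10 then turn the ring into a moving helicase, primase and DNA polymerase alpha start each strand, the clamp loader RFC puts PCNA on DNA as a sliding clamp, and the polymerases delta and epsilon extend the strands. Many of these genes are transcribed together late in G1 under E2F factors, so their mRNA is widely read as a sign of dividing cells, as in proliferating NSC before they differentiate.

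The replication genes were lower in the knockdown on both days, and none was higher. On day 5, 37 of the 45 genes passed the test as lower and 8 did not pass, with a median log2 fold change of −0.65 over the 45, which is a level 36.3% lower. On day 7, 42 were lower and 3 did not pass, with a median of −0.74, a level 39.9% lower. For comparison, 17.9% of the 22581 genes tested were lower on day 5 and 14.8% were higher, and the median over all of them was −0.06. On day 7, 25.8% of 24606 genes were lower and 23.4% higher, with a median of −0.03. Fold changes are on the scale of log2(scaled TPM + 0.1), where scaled TPM is the deposited TPM divided by a factor for each library, and a gene passed where limma's adjusted p over all genes tested was under 0.05.

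**Figure D1:**
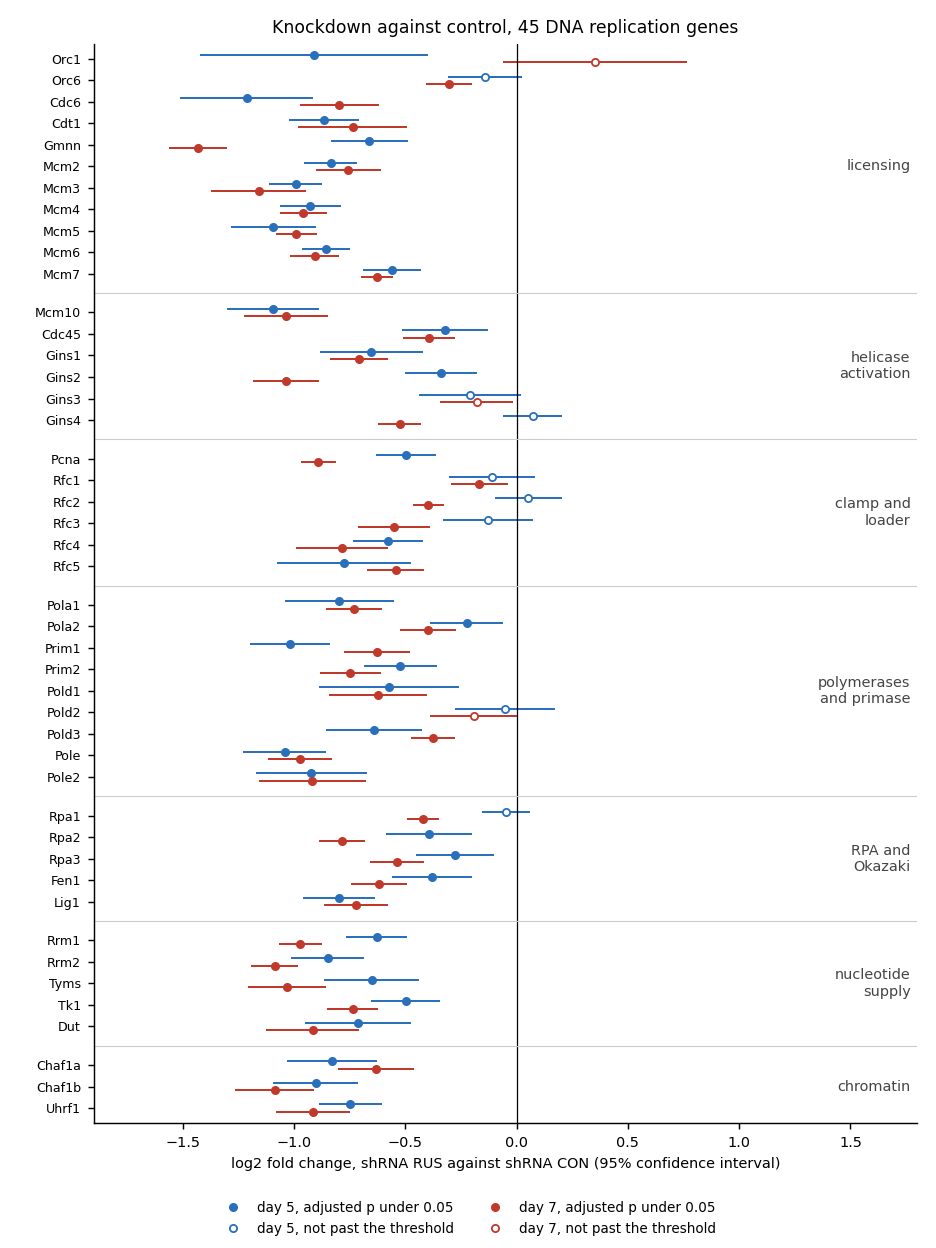
Log2 fold change of shRNA RUS against shRNA CON (x axis) for each of the 45 replication genes (y axis, grouped by role) on day 5 (blue) and day 7 (red). Bars are 95% confidence intervals, filled points passed the test and open points did not. On day 5 the values lie between −1.21 (Cdc6) and 0.07 (Gins4), and on day 7 between −1.43 (Gmnn) and 0.35 (Orc1).

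Of the 45 genes, 36 were lower on both days, *Orc1* on day 5 alone, 6 on day 7 alone, and *Gins3* and *Pold2* on neither day. All 4 knockdown libraries lay below all 4 control libraries for 37 genes on day 5, against 18.7% of all genes tested, and these were the 37 that passed the test. On day 7 this held for 42 genes, against 24.7% of all genes tested, and 41 of them passed; *Rfc1* passed with overlapping groups, and *Gins3* did not pass though its groups did not overlap. The median over the 45 genes was computed in each library relative to the control mean of its day. In the knockdown libraries of day 5 it was −0.51, −0.68, −0.61 and −0.64 for replicates 1 to 4, and in those of day 7 it was −0.70, −0.76, −0.69 and −0.76. In the 8 control libraries it lay between −0.06 and 0.03. Every knockdown library was thus below every control library, and in each of them 42 to 44 of the 45 genes were below the control mean.

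**Figure D2:**
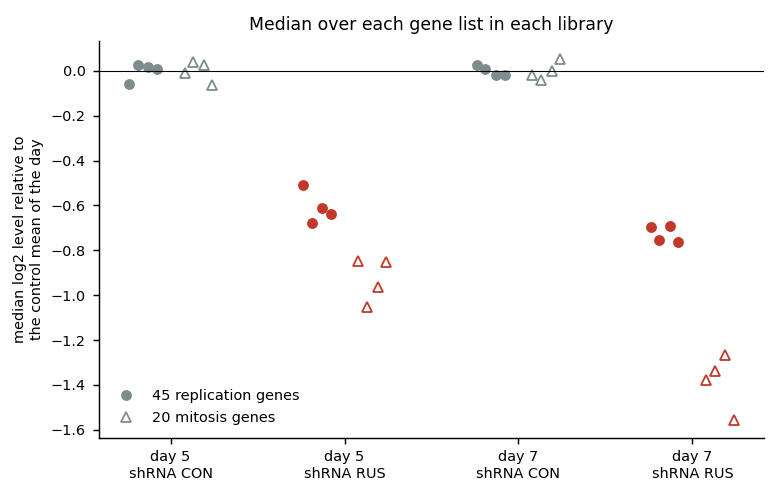
Median log2 level relative to the control mean of the same day (y axis) in each library of the 4 groups (x axis), over the 45 replication genes (filled circles) and over 20 mitosis genes (open triangles). The knockdown libraries lie between −0.51 and −0.76 for the replication genes and between −0.85 and −1.55 for the mitosis genes, and the control libraries lie near 0 for both.

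The target of the shRNA was listed too low in these libraries to check the labels. *RUS* RNA (*Gm20754*) was listed at 0.24, 0.11, 0.18 and 0.16 TPM in the control libraries of day 5 and at 0.05, 0, 0.12 and 0.32 TPM in the knockdown libraries. On day 7 it was 0.7, 0.72, 0.26 and 0.54 TPM in the controls and 0.54, 0.38, 0 and 0.04 TPM in the knockdown. The study measured RUS separately by RT-qPCR, which was not analysed here. In these libraries the groups overlapped on both days and the difference did not pass the test, with log2 fold changes of −0.40 (limma adjusted p = 0.519) and −1.28 (limma adjusted p = 0.114). The library labelled shRNA RUS replicate 4 of day 5 was above all controls. Without it, 36 of the 45 replication genes were lower on day 5, with a median of −0.61.

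Some markers of other cell types differed between the groups too, and their part in the values below was not tested. Over all genes tested, 17.9% were lower and 14.8% higher on day 5, and 25.8% and 23.4% on day 7. The lists for NSC, astrocytes and neurons had markers called in both directions, with medians near 0. On day 7 all 8 microglia markers were lower in the knockdown (their summed level was 381 to 424 scaled TPM in the controls and 189 to 239 in the knockdown), as were 7 of 8 markers of the oligodendrocyte lineage (405 to 448 against 261 to 286). On day 5, 2 microglia markers were higher and 2 lower (133 to 145 against 128 to 176), and 4 oligodendrocyte markers were lower (227 to 304 against 152 to 235). Summed markers of NSC were 11439 to 13468 scaled TPM in the controls and 16328 to 19513 in the knockdown on day 5, and 7330 to 7677 against 7691 to 8463 on day 7, with 3 of 8 higher and 3 lower on day 5 (median −0.06) and 2 higher and 3 lower on day 7 (median 0.03). *Vim* made up most of these sums, with a mean of 8447 scaled TPM in the controls and 12424 in the knockdown on day 5, while Nes was lower on both days, with log2 fold changes of −0.87 and −1.19. Summed astrocyte markers were 3517 to 3706 against 4798 to 5247 on day 5 and 2215 to 2283 against 2938 to 3123 on day 7, with 2 of 7 higher and 2 lower, then 3 higher and 1 lower (median 0.01 on each day), and Gfap had the highest level on day 5 and Aldoc on day 7. Of the 10 neuron markers, 3 were higher and 2 lower on day 5 (485 to 553 against 515 to 564, median −0.10). On day 7, 4 were higher and 3 lower (820 to 902 against 814 to 947, median 0.08). The 9 fibroblast and vascular markers summed to no more than 22.0 scaled TPM in any library, and of the 6 that were tested none was called on day 5 and 2 were higher on day 7; Cldn5 was at 0 in the controls and Cdh5 in the knockdown of day 7, and no other marker of these lists was at 0 in a whole group. In these bulk libraries, fewer cells of a type and less RNA per cell cannot be told apart.

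The promoters of the genes hold E2F and CCAAT words more often than promoters at large do. RefSeq promoter windows of GRCm38.p6, from 250 bases before the annotated start to 50 bases after it, were given for 37 of the 45 genes and were not given for *Gmnn*, *Mcm4*, *Gins1*, *Gins2*, *Gins4*, *Rfc2*, *Prim2* and *Pole*. An E2F word (TTTCCCGC, TTTGGCGC, TTTCGCGC or TTTGCCGC, on either strand) stood in the window of 15 of the 37 genes (40.5%), against 2.6% of the 27025 genes with a window and 4.21% of the 13439 of them tested on day 5. The word CCAAT, on either strand, stood in 23 of the 37 (62.2%), against 41.1% of all genes and 42.3% of the tested ones, and 9 of the 37 held both (24.3%), against 1.12%. The word TTTGAA, known as the CHR of mitotic genes, stood in 5 of the 37 (13.5%), against 20.2% of all genes and 15.2% of the tested ones. The windows of the replication genes had a median GC content of 61.3%, against 52.7% over all genes and 59.8% over the tested ones. A match is a run of letters and not a bound site, and nothing about the factors was measured here.

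Windows are printed for 7 genes chosen by hand. *Mcm3*, *Mcm5*, *Mcm6* and *Cdc6* fell on both days and hold E2F words. *Orc1* was lower on day 5 alone, *Gins3* was lower on neither day, and *Pcna* had the highest level. Of these 7 only *Pcna* holds no E2F word, while 22 of the 37 genes with a window hold none. Each printed window is read 5′ to 3′ on the gene's strand, and its last 50 bases lie after the annotated RefSeq start. Capitals mark the E2F words and CCAAT on either strand (so that GCGGGAAA, GCGCGAAA and ATTGG are matches on the opposite strand). Gene starts in GENCODE vM21 can differ from these: that of *Cdc6* (98907801) lies before its window and that of *Mcm5* (75109569) after it. The windows lie at chr1:20820263-20820562 on the minus strand (*Mcm3*), chr8:75109259-75109558 on the plus strand (*Mcm5*), chr1:128359656-128359955 on the minus strand (*Mcm6*), chr11:98907901-98908200 on the plus strand (*Cdc6*), chr4:108579204-108579503 on the plus strand (*Orc1*), chr8:95633309-95633608 on the plus strand (*Gins3*) and chr2:132253131-132253430 on the minus strand (*Pcna*).
Mcm3: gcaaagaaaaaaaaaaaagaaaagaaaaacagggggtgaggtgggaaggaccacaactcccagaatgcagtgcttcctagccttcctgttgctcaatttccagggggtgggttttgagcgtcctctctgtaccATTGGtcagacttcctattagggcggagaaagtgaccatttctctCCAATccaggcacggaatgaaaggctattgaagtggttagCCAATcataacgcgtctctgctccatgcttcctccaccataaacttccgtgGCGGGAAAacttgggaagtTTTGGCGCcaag
Mcm5: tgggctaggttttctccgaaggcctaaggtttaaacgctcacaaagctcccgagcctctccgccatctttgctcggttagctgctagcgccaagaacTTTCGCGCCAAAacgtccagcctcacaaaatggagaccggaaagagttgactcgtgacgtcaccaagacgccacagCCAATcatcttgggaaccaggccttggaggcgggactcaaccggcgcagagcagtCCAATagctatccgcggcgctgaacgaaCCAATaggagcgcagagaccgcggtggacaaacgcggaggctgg
Mcm6: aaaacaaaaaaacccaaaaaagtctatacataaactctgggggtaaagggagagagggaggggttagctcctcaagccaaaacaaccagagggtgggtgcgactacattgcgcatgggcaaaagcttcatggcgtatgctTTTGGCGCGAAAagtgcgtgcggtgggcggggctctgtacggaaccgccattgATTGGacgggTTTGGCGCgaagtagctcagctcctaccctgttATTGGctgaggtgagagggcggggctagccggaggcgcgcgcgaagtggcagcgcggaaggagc
Cdc6: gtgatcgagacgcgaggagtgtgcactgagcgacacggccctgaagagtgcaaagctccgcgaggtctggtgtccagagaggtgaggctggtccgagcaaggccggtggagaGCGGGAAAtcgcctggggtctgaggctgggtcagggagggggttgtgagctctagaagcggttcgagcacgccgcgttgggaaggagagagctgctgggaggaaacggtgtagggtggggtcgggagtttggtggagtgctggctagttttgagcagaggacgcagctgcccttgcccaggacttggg
Orc1: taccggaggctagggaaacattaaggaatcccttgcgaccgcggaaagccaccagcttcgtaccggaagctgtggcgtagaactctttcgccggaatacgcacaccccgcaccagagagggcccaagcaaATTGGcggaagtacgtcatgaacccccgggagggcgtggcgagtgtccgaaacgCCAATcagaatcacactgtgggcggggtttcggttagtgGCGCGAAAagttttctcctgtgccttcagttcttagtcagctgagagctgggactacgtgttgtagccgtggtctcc
Gins3: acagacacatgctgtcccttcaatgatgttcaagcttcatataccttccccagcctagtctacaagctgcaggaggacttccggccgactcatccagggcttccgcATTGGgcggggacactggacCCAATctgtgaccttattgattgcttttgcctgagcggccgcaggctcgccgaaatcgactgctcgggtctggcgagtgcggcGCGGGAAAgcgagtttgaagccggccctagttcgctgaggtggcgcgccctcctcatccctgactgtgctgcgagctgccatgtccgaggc
Pcna: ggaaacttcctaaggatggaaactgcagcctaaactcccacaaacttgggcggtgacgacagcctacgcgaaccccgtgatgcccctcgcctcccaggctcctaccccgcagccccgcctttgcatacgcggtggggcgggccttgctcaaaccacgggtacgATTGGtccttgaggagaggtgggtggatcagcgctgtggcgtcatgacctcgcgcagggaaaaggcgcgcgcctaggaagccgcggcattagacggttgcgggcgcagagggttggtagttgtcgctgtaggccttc

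The *Mcm3* window holds TTTCCCGC and TTTGGCGC after the annotated start, at 20 and 39 bases, and 3 CCAAT words before it. In the *Mcm5* window TTTCGCGC and, on the opposite strand, TTTGGCGC overlap in 1 run that begins 153 bases before the start, and such a run also stands in the *Mcm6* window 110 bases before the start, with a further TTTGGCGC at 47 bases before it. *Cdc6*, *Orc1* and *Gins3* hold 1 E2F word each, and *Pcna* holds none, with 1 CCAAT word. Genes with and without an E2F word were both mostly lower in the knockdown. Of the 15 genes with such a word, 13 were lower on day 5 and 13 on day 7 (medians −0.80 and −0.73), and of the 22 without, 18 and 21 were lower (medians −0.54 and −0.68). Licensing genes held the word most often, 7 of the 9 with a window, and the nucleotide supply genes least, 0 of 5.

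**Figure D3:**
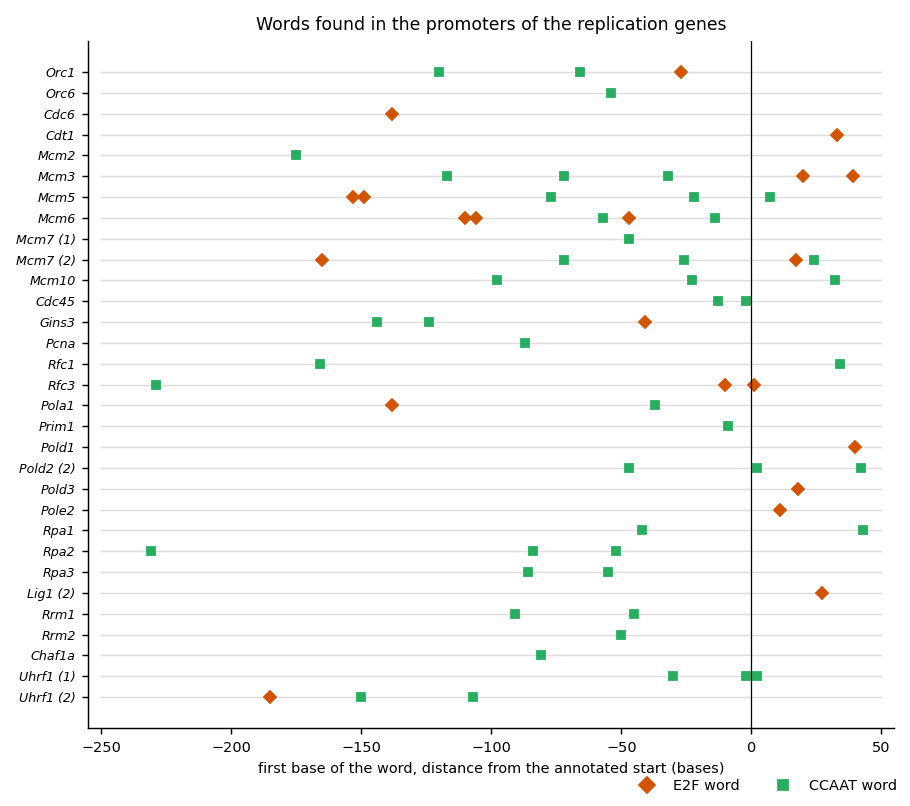
Position of each E2F word (orange diamonds) and CCAAT word (green squares) in the promoter windows that hold any (rows, with a number where a gene has more than 1 window), by distance of the word's first base from the annotated start in bases (x axis, 0 at the start). The 21 E2F words lie between −185 and 40 bases with a median of −27, and the 48 CCAAT words have a median of −51.

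The level of the genes spanned a wide range, which is comparable between genes since TPM are per transcript length. In the controls of day 5 the mean level ran from 1.55 scaled TPM for *Orc1* to 197 for *Pcna*, with a median of 30.9 over the 45 genes. After *Pcna*, the highest in these controls were *Rrm2* with 137 ± 8.47, *Rfc2* with 93.1 ± 4.54 and *Rrm1* with 91.1 ± 4.59 scaled TPM (SD, n = 4). The median over the genes was 18.1 in the knockdown on day 5, 31.2 in the control on day 7 and 18.1 in the knockdown on day 7, where levels of a day are on the scale of that day. *Pcna* was the highest and *Orc1* the lowest in each of the 4 groups. The number of reads behind a TPM is unknown; as a guide, the authors' mean of normalized signal over a day's libraries ran from 61.7 (*Orc1*) to 5905 (*Rrm1*) over the 45 genes on day 5 and from 62.7 to 5262 for the same genes on day 7.

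**Figure D4:**
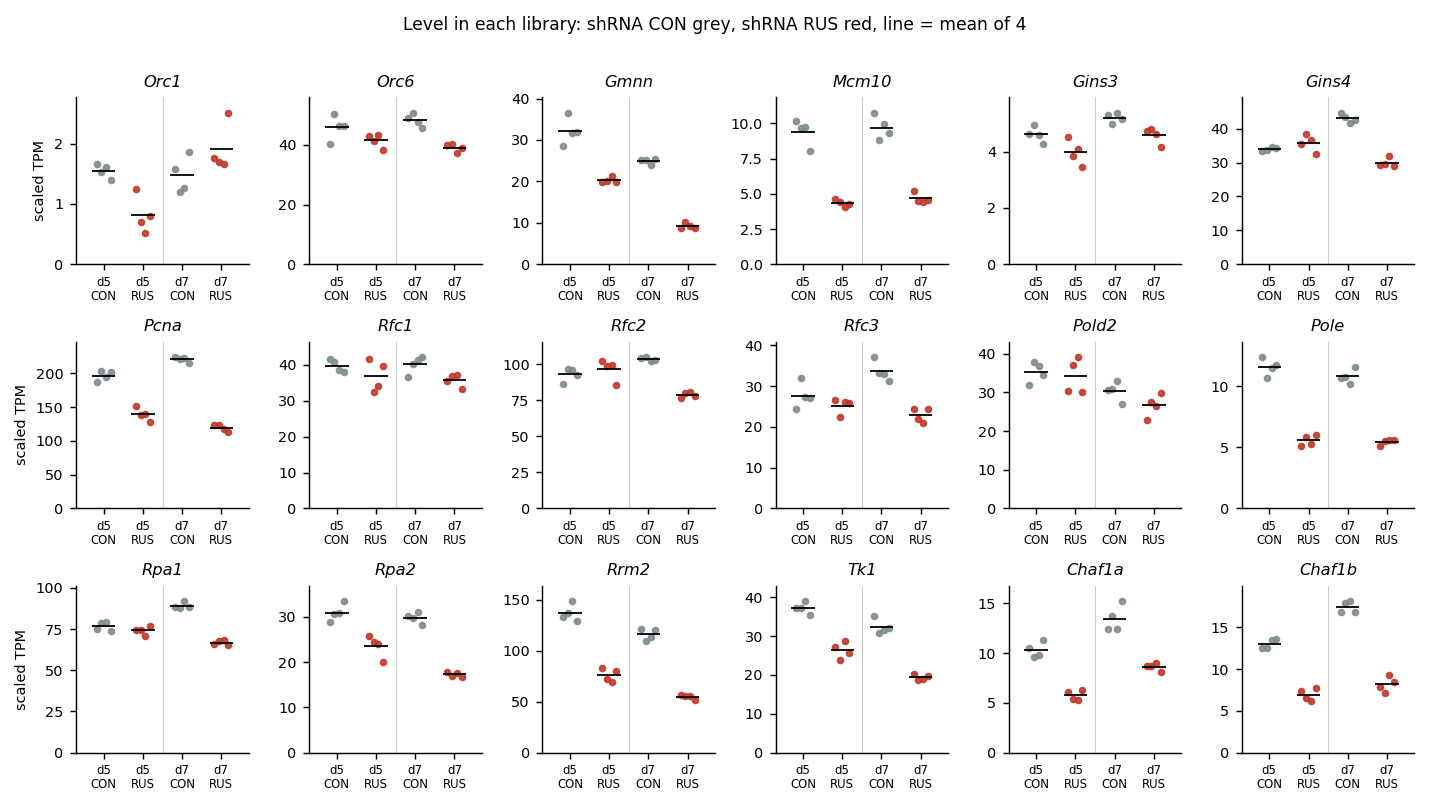
Level in scaled TPM (y axis, from 0) in each library of the 4 groups (x axis, d5 for day 5 and d7 for day 7, CON for the control and RUS for the knockdown) for the 18 genes whose libraries are given one by one. Points are libraries, lines are means of 4, and each day has its own scale. Gmnn on day 7 shows the widest relative gap, with 24.0 to 25.5 in the controls and 8.68 to 10.1 in the knockdown.

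Among the 11 genes of origin recognition and licensing, 10 were lower on each day, with medians of −0.87 and −0.80. The whole *Mcm2* to *Mcm7* ring fell, from −0.56 (*Mcm7*) to −1.09 (*Mcm5*) on day 5 and from −0.63 (*Mcm7*) to −1.16 (*Mcm3*) on day 7. *Mcm5*, whose window is printed above, had a mean level of 39.1 ± 2.38 scaled TPM in the controls and 18.3 ± 1.94 in the knockdown on day 5 (SD, n = 4). Of the loading factors, *Cdc6* had the largest change of all 45 genes on day 5, a log2 difference of −1.21 ± 0.132 (SE, adjusted p = 0.000179 in limma), and was at −0.80 on day 7, while *Cdt1* was at −0.87 and −0.74.

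*Gmnn*, the inhibitor of *Cdt1*, changed most of all 45 genes on day 7. The protein-coding gene (ENSMUSG00000006715) lies at chr13:24751845-24761923 on the minus strand of GRCm38. Its level on day 7 was 25.2, 25.1, 24 and 25.5 scaled TPM in the control libraries and 8.76, 10.1, 9.28 and 8.68 in the knockdown, a log2 difference of −1.43 ± 0.0581 (SE, adjusted p = 1.86e-07 in limma), or 62.9% lower. On day 5 the controls had 28.5, 36.6, 31.6 and 31.9 and the knockdown 19.9, 20.1, 21.2 and 19.8 scaled TPM, a log2 difference of −0.66 ± 0.0766 (SE, adjusted p = 0.000249 in limma). All knockdown libraries were below all controls on both days.

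*Orc1* and *Orc6*, the subunits of the origin recognition complex on the list, were the exceptions of this group. *Orc1*, the subunit that carries the ATP-binding site used in loading, was at 1.66, 1.53, 1.61 and 1.40 scaled TPM in the controls of day 5 and at 1.25, 0.703, 0.511 and 0.793 in the knockdown, a change of −0.91 ± 0.227 (SE, adjusted p = 0.0136 in limma). On day 7 it was at 1.58, 1.20, 1.26 and 1.86 in the controls and 1.76, 1.70, 1.66 and 2.52 in the knockdown, a difference of 0.35 (95% CI −0.06 to 0.76, limma adjusted p = 0.146) with overlapping groups. The wide spread goes with the lowest level of the 45 genes. *Orc6* was at 40.5, 50.4, 46.3 and 46.4 scaled TPM in the controls of day 5 and 43.1, 41.3, 43.3 and 38.3 in the knockdown, a log2 fold change of −0.14 (95% CI −0.31 to 0.03, limma adjusted p = 0.178), and the groups overlapped. With TPM as deposited it passed as lower on day 5 (−0.30, limma adjusted p = 0.00379). On day 7, with 49, 50.8, 47.5 and 45.6 in the controls and 39.9, 40.2, 37.1 and 39 in the knockdown, it was lower, with a log2 fold change of −0.30 ± 0.0451 (SE, adjusted p = 0.000379 in limma) and no overlap.

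Of the 6 genes of helicase activation, 4 were lower on day 5 and 5 on day 7, with medians of −0.33 and −0.62. *Mcm10*, which helps to open the duplex, had the largest change on day 5 and, level with *Gins2*, on day 7. Its level was 10.1, 9.70, 9.71 and 8.02 scaled TPM in the controls and 4.63, 4.40, 4.05 and 4.25 in the knockdown on day 5, a log2 difference of −1.09 ± 0.0920 (SE, adjusted p = 5.44e-05 in limma). The day 7 level was 10.8, 8.83, 9.92 and 9.27 in the controls and 5.20, 4.47, 4.43 and 4.58 in the knockdown, a change of −1.04 ± 0.0839 (SE, adjusted p = 7.68e-06 in limma), and the groups were apart on both days. *Cdc45*, the helicase cofactor, was lower, at −0.32 and −0.39. On day 5 its call was lost without replicate 2 of shRNA RUS (limma adjusted p = 0.053), with quantile normalization (0.0755) and with the replicate number as a block (0.0696).

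Of the 4 GINS subunits, which form 1 complex, 2 were lower on day 5 and 3 on day 7. *Gins1* was at −0.65 and −0.71 on day 5 and day 7, and *Gins2* at −0.34 and −1.04. *Gins4* was at 33.5, 33.7, 34.5 and 34.3 scaled TPM in the controls of day 5 and 35.6, 38.4, 36.7 and 32.5 in the knockdown, a difference of 0.07 (95% CI −0.06 to 0.21, limma adjusted p = 0.387). On day 7 its controls had 44.7, 43.3, 41.8 and 42.5 and its knockdown libraries 29.2, 29.6, 31.9 and 29, a log2 fold change of −0.53 ± 0.0433 (SE, adjusted p = 8.68e-06 in limma), with the groups overlapping on day 5 and apart on day 7. With TPM as deposited the day 5 value of *Gins4* was −0.09.

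*Gins3* passed on neither day. It was at 4.64, 4.94, 4.60 and 4.26 scaled TPM in the controls of day 5 and 4.53, 3.85, 4.10 and 3.45 in the knockdown, a log2 fold change of −0.21 (95% CI −0.44 to 0.02, limma adjusted p = 0.145). On day 7 it was at 5.29, 4.97, 5.39 and 5.14 in the controls and 4.72, 4.80, 4.63 and 4.18 in the knockdown, a log2 difference of −0.18 (95% CI −0.34 to −0.01, limma adjusted p = 0.0694). The day 7 libraries did not overlap, and *Gins3* passed as lower with TPM as deposited on day 5 (−0.37, limma adjusted p = 0.0187), and with the 75th percentile (0.0444) or eBayes without a trend (0.0391) on day 7.

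Of the 6 genes of the sliding clamp and its loader, 3 were lower on day 5 and all 6 on day 7, with medians of −0.31 and −0.55. *Pcna*, the clamp, was at 187, 204, 194 and 201 scaled TPM in the controls and 151, 138, 140.3 and 128 in the knockdown on day 5, a log2 difference of −0.50 ± 0.0596 (SE, adjusted p = 0.000298 in limma). The day 7 level was 225, 221, 222 and 216 in the controls and 123, 123, 117 and 113 in the knockdown, a change of −0.89 ± 0.0352 (SE, adjusted p = 1.76e-07 in limma), or 46% lower. The groups were apart on both days.

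In the loader, *Rfc4* was lower at −0.58 on day 5 and −0.78 on day 7 and *Rfc5* at −0.78 and −0.54, while the other subunits did not pass on day 5. *Rfc2* was at 86.8, 96.8, 95.9 and 92.9 scaled TPM in the controls of day 5 and 103, 99, 99.5 and 85.8 in the knockdown, a log2 fold change of 0.05 (95% CI −0.10 to 0.20, limma adjusted p = 0.582). *Rfc3* was at 24.3, 32, 27.4 and 27.1 in the controls and 26.5, 22.5, 26.1 and 25.8 in the knockdown, a log2 difference of −0.13 (95% CI −0.33 to 0.07, limma adjusted p = 0.306), which passed as lower with TPM as deposited (−0.29, limma adjusted p = 0.0303). *Rfc1*, the large subunit, was at 41.6, 40.8, 38.5 and 37.9 in the controls and 41.7, 32.4, 34 and 39.7 in the knockdown, a log2 fold change of −0.11 (95% CI −0.30 to 0.08, limma adjusted p = 0.364). The libraries of the 2 groups overlapped for each of these 3 subunits on day 5.

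On day 7 *Rfc2* was at 105, 105, 102 and 103 scaled TPM in the controls and 76.6, 80.2, 80.7 and 77.9 in the knockdown, a log2 fold change of −0.40 ± 0.0307 (SE, adjusted p = 5.94e-06 in limma). *Rfc3* was at 37.2, 33.2, 32.9 and 31.2 in the controls and 24.5, 22, 20.9 and 24.5 in the knockdown, a log2 difference of −0.55 ± 0.0716 (SE, adjusted p = 0.000163 in limma), and both were now apart. *Rfc1* had the smallest change of this group, from 36.6, 40.3, 41.5 and 42.3 in the controls to 35.5, 36.9, 37.2 and 33.2 in the knockdown, a log2 difference of −0.17 ± 0.0571 (SE, adjusted p = 0.0349 in limma), with overlapping groups. The call of *Rfc1* was lost when any of control replicates 2, 3 and 4 or knockdown replicates 1 and 4 was left out, with values of −0.17 to −0.13, and with eBayes without a trend (limma adjusted p = 0.0699), 1 fit over all 16 libraries (0.0625) or the replicate number as a block (0.0616). The value of *Rfc2* on day 5 was −0.10 with TPM as deposited, −0.08 with quantile normalization and −0.02 with scaling to the 75th percentile.

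The replicative polymerases and primase had 8 of 9 genes lower on each day, with medians of −0.64 and −0.63. *Pole*, the catalytic subunit of polymerase epsilon, had the largest change on both days. It was at 12.4, 10.6, 11.4 and 11.8 scaled TPM in the controls and 5.10, 5.88, 5.25 and 6.04 in the knockdown on day 5, a log2 difference of −1.04 ± 0.0833 (SE, adjusted p = 4.33e-05 in limma). On day 7 it was at 10.7, 10.8, 10.2 and 11.6 in the controls and 5.08, 5.55, 5.61 and 5.56 in the knockdown, a log2 fold change of −0.97 ± 0.0641 (SE, adjusted p = 2.26e-06 in limma), with no overlap on either day. Its partner *Pole2* was at −0.92 on both days.

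Polymerase alpha and primase, which make the primers, fell as a whole. *Prim1*, the catalytic primase subunit, was at −1.02 on day 5 and −0.63 on day 7, and *Prim2* at −0.52 and −0.75. *Pola1*, the catalytic subunit of polymerase alpha, was at −0.80 and −0.73, and *Pola2* at −0.22 and −0.40. The day 5 call of *Pola2* (limma adjusted p = 0.0424) was the least firm of the 45 genes and was lost in 7 of the 8 fits that left out 1 library, all but the one without replicate 2 of shRNA RUS. It was also lost with quantile normalization (−0.18), without the filter on low values, with eBayes without a trend and with the replicate number as a block. Of polymerase delta, *Pold1*, the catalytic subunit, was lower at −0.57 and −0.62 and *Pold3* at −0.64 and −0.38.

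*Pold2*, an accessory subunit of polymerase delta, passed on neither day. Its level was 31.9, 37.7, 36.8 and 34.5 scaled TPM in the controls of day 5 and 30.3, 37, 39.2 and 30.2 in the knockdown, a log2 difference of −0.05 (95% CI −0.27 to 0.17, limma adjusted p = 0.734). The day 7 level was 30.7, 30.8, 32.8 and 27.1 in the controls and 22.8, 27.5, 26.4 and 29.9 in the knockdown, a log2 fold change of −0.19 (95% CI −0.39 to 0.01, limma adjusted p = 0.104). The groups overlapped on both days, and leaving out control replicate 4 or knockdown replicate 4 brought its adjusted p on day 7 under the threshold (log2 differences of −0.24 and −0.25), as did scaling to the 75th percentile (−0.25, limma adjusted p = 0.0245).

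Replication protein A (RPA) and the genes that process Okazaki fragments had 4 of 5 genes lower on day 5 and 5 on day 7, with medians of −0.38 and −0.62. *Lig1*, the ligase that seals the fragments, was at −0.80 and −0.72, and *Fen1*, the flap nuclease, at −0.38 and −0.62. *Rpa2* was at 28.9, 30.6, 30.7 and 33.5 scaled TPM in the controls of day 5 and 25.8, 24.5, 24.1 and 19.97 in the knockdown, a log2 difference of −0.39 ± 0.0859 (SE, adjusted p = 0.00716 in limma). On day 7 it was at 30.3, 29.8, 31 and 28.1 in the controls and 17.9, 16.8, 17.6 and 16.7 in the knockdown, a log2 fold change of −0.78 ± 0.0462 (SE, adjusted p = 1.17e-06 in limma), and the groups were apart on both days.

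*Rpa1*, the largest RPA subunit, was at 75.3, 78.7, 79.3 and 73.9 scaled TPM in the controls of day 5 and 74.8, 74.4, 71 and 76.8 in the knockdown, a log2 difference of −0.05 (95% CI −0.16 to 0.06, limma adjusted p = 0.476), with overlapping groups. It passed as lower on day 5 with TPM as deposited (−0.21, limma adjusted p = 0.0272) and with quantile normalization (−0.16, limma adjusted p = 0.0475). On day 7 the controls had 88.6, 87.9, 92.2 and 88.3 and the knockdown 65.9, 67.6, 68.2 and 65.3, a change of −0.42 ± 0.0319 (SE, adjusted p = 5.36e-06 in limma) with no overlap. *Rpa3* was at −0.28 and −0.54, and its day 5 call was lost without control replicate 3 (limma adjusted p = 0.0544) or knockdown replicate 2 (0.0645), and with the replicate number as a block (0.0791).

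All 5 genes of nucleotide supply were lower on both days, with medians of −0.65 and −0.97. *Rrm2*, the subunit of ribonucleotide reductase that is made in S phase, was at 133, 137, 149 and 129 scaled TPM in the controls of day 5 and 83.2, 72.5, 68.9 and 79.95 in the knockdown, a log2 fold change of −0.85 ± 0.0727 (SE, adjusted p = 5.71e-05 in limma). The day 7 level was 121, 109, 114 and 121 in the controls and 56.6, 55.7, 55.2 and 51.3 in the knockdown, a log2 difference of −1.09 ± 0.0465 (SE, adjusted p = 2.41e-07 in limma). The groups were far apart on both days, and its partner *Rrm1* was at −0.63 and −0.97. *Tk1*, thymidine kinase, changed least of this group on both days. It was at 37.2, 37.2, 39.1 and 35.4 in the controls and 27.2, 23.8, 28.8 and 25.7 in the knockdown on day 5, a log2 difference of −0.50 ± 0.0680 (SE, adjusted p = 0.000609 in limma), and the groups were apart. Its day 7 levels were 35.1, 30.9, 31.6 and 32.1 in the controls and 20.3, 18.7, 18.9 and 19.7 in the knockdown, a log2 difference of −0.74 ± 0.0513 (SE, adjusted p = 3.18e-06 in limma), with no overlap. *Tyms*, thymidylate synthase, was at −0.65 and −1.03, and *Dut*, which removes dUTP, at −0.71 and −0.92.

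The 3 genes of chromatin assembly and maintenance methylation were lower on both days, with medians of −0.83 and −0.91. *Chaf1b*, a subunit of the histone chaperone that follows the fork, was at 12.5, 12.5, 13.5 and 13.7 scaled TPM in the controls of day 5 and 7.36, 6.53, 6.17 and 7.72 in the knockdown, a log2 fold change of −0.90 ± 0.0856 (SE, adjusted p = 9.01e-05 in limma). On day 7 it was at 16.8, 17.9, 18.2 and 16.9 in the controls and 7.88, 7.19, 9.30 and 8.41 in the knockdown, a log2 difference of −1.09 ± 0.0790 (SE, adjusted p = 4.07e-06 in limma). Its partner *Chaf1a* was at 10.5, 9.56, 9.82 and 11.4 in the controls and 6.12, 5.34, 5.29 and 6.33 in the knockdown on day 5, a log2 difference of −0.83 ± 0.0900 (SE, adjusted p = 0.000173 in limma). On day 7 *Chaf1a* was at 12.5, 13.7, 12.5 and 15.3 in the controls and 8.70, 8.71, 9.0 and 8.14 in the knockdown, a log2 difference of −0.63 ± 0.0751 (SE, adjusted p = 9.07e-05 in limma), and all knockdown libraries of both genes were below all controls. *Uhrf1*, which brings the maintenance methyltransferase to hemimethylated DNA, was at −0.75 and −0.91.

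Some of these levels could take in reads of other genes. In GENCODE vM21, 22 of the 45 genes overlap another annotated gene, among them *Mcm7* with *Cops6*, *Ap4m1* and the microRNA genes *Mir25*, *Mir93* and *Mir106b*, *Rfc4* with *Eif4a2*, *Rfc2* with *Lat2*, *Fen1* with *Tmem258* and *Orc6* with *Vps35*. Named pseudogenes exist for *Pcna* and *Tyms*, and the strand setting of the authors' quantification is not given in the sources used here.

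The responses of the 2 days were compared gene by gene in 1 fit of all 16 libraries, where a common scale allows it. The knockdown effect differed between the days for 15 genes: it was more negative on day 7 for 13 and more positive for *Orc1* and *Prim1*, with 30 not called. Over all 23789 genes tested, 14.6% had a more negative and 15.2% a more positive effect on day 7, so the 13 of 45 stood above the share over all genes and the 2 of 45 below it. The difference was −0.78 ± 0.0943 (SE, adjusted p = 3.23e-05 in limma) for *Gmnn*, −0.71 for *Gins2*, −0.61 for *Gins4*, −0.46 for *Rfc2*, −0.43 for *Rfc3*, −0.40 for *Pcna* and −0.40 for *Rpa2*. It was −0.39 for *Tyms*, −0.38 for *Rpa1*, −0.36 for *Rrm1*, −0.27 for *Rpa3*, −0.25 for *Tk1* and −0.25 for *Rrm2*. All 3 RPA subunits and 4 of 5 nucleotide supply genes were thus among the 13, and of the *Mcm2* to *Mcm7* ring and the polymerases only *Prim1* was called. In the same comparison all 8 microglia markers had a more negative effect on day 7 (median −1.01, and 7 of 8 with TPM as deposited), as did 14 of the 20 genes of a mitosis list (median −0.47, and 10 of 20 with TPM as deposited). Of the other markers, 3 of 8 for NSC, 2 of 7 for astrocytes and 1 of 10 for neurons were more negative, and 1, 2 and 3 more positive, with 1 of 8 oligodendrocyte markers more positive and none of 6 fibroblast and vascular markers called. Their part in the result was not tested. With the replicate number as a block within each day, 10 were more negative and *Orc1* alone more positive, and *Rpa3*, *Rrm2* and *Tyms* did not pass (limma adjusted p = 0.0936, 0.133 and 0.0774). With TPM as deposited, 8 genes were called more negative and 6 more positive, against 8.63% and 24.0% over all genes; without the library labelled shRNA RUS replicate 4 of day 5, 4 were called more positive. The calls of *Rpa3*, *Rrm2*, *Tk1* and *Tyms* were each lost in 8 to 11 of the 16 fits that left out 1 library.

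*Orc1* stood apart from the rest in this comparison, with a difference of 1.25 ± 0.302 (SE, adjusted p = 0.0057 in limma). On the common scale its level was 1.69 ± 0.125 and 1.37 ± 0.289 scaled TPM in the controls of day 5 and day 7 and 0.885 ± 0.342 and 1.75 ± 0.375 in the knockdown (SD, n = 4). The knockdown was lowest on day 5 and highest on day 7. *Prim1* differed by 0.38 ± 0.105 (SE, adjusted p = 0.0129 in limma), and its common-scale level was 20.1 ± 0.708 and 18.6 ± 1.41 in the controls and 9.89 ± 1.02 and 11.9 ± 0.723 in the knockdown, so that its lag behind the control was smaller on day 7. The difference of *Prim1* was not called with quantile normalization or with the replicate number as a block within each day.

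From day 5 to day 7, as bFGF was withdrawn, the replication genes moved in both directions in the controls. In the controls 6 were higher on day 7, 16 lower and 23 not called, with a median of −0.11, against 26.9% higher and 21.6% lower over all genes and a median of 0.07. The higher ones were *Pola1* at 0.38, *Gins2* at 0.32, *Pold3* at 0.29, *Cdt1* at 0.28, *Mcm7* at 0.25 and *Lig1* at 0.22. The lower ones were led by *Pold1* at −0.66 ± 0.127 (SE, adjusted p = 0.000442 in limma), *Gmnn* at −0.59, *Rfc4* at −0.51, *Rrm2* at −0.47, *Pold2* at −0.45 and *Tk1* at −0.43. These directions rest on the scaling: with TPM as deposited, where the median of all genes moved to 0.20, 14 were higher and 7 lower, against 36.0% and 14.4% over all genes, and the median of the 45 was 0.04. Cell type markers moved over the same days in the controls, and their part was not tested: all 8 microglia markers were higher on day 7 (median 1.28), 6 of 8 oligodendrocyte markers were higher and 1 lower (median 1.21), and 7 of 10 neuron markers were higher and 2 lower (median 0.71). Of the astrocyte markers 5 of 7 were lower and 1 higher (median −0.40), of the NSC markers 3 of 8 were lower and 1 higher (median −0.25), and of the tested fibroblast and vascular markers 4 of 6 were lower (median −1.35). The call of *Cdt1* was lost without control replicate 2 of day 5 or 1 of day 7, that of *Dut* without control replicate 4 of either day, and those of *Rfc1*, *Rpa3*, *Mcm6* and *Orc6* in 4, 6, 9 and 10 of the 16 fits that left out 1 library.

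In the knockdown 8 genes were higher on day 7, 27 lower and 10 not called, with a median of −0.27, against 35.0% higher and 25.8% lower over all genes and a median of 0.13. *Gmnn* fell most, with a log2 fold change of −1.37 ± 0.0667 (SE, adjusted p = 1.5e-10 in limma), from 22 ± 0.699 to 8.44 ± 0.580 scaled TPM on the common scale, where the controls went from 35 ± 3.60 to 23.1 ± 0.667 (SD, n = 4). *Rfc4* at −0.72, *Pold1* at −0.72, *Rrm2* at −0.72, *Rpa2* at −0.68 and *Tk1* at −0.68 followed. The higher ones were *Orc1* at 0.95 ± 0.214 (SE, adjusted p = 0.00112 in limma), *Pold3* at 0.54, *Pola1* at 0.44, *Cdt1* at 0.40, *Chaf1a* at 0.34, *Lig1* at 0.28, *Prim1* at 0.27 and *Mcm7* at 0.17. With TPM as deposited, where the median of all genes moved to 0.41, 17 were higher and 12 lower, against 49.6% and 14.9% over all genes, and the median of the 45 was 0.05. In the knockdown 6 of 8 microglia markers (median 0.36), 5 of 8 oligodendrocyte markers (median 0.70) and 8 of 10 neuron markers (median 0.71) were higher on day 7, with 2 neuron markers lower. Of the tested fibroblast and vascular markers 4 of 6 were lower (median −0.81). Astrocyte markers had 4 of 7 lower and 1 higher (median −0.36, but 0.33 with quantile normalization), and NSC markers 5 of 8 lower and 2 higher (median −0.25, but 0.08 with TPM as deposited and 0.13 with quantile normalization); the part of these markers was not tested. The calls of *Gins1* and *Tyms* were lost in 5 and 11 of the 16 fits that left out 1 library. The comparisons between the days and between the shRNAs share their libraries, and no relation between them was tested.

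**Figure D5:**
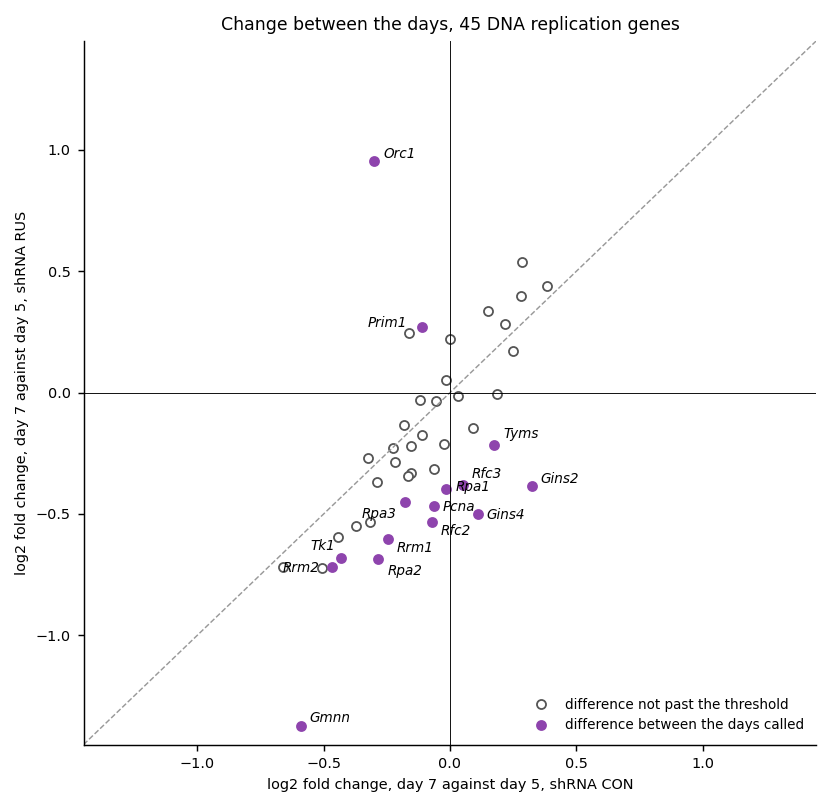
Log2 fold change of day 7 against day 5 in the control (x axis) and in the knockdown (y axis) for the 45 replication genes. Purple points are the 15 genes whose knockdown effect differed between the days, and the dashed line marks equal change; Orc1 lies above it with 0.95 in the knockdown, and 13 purple points, led by Gmnn at −1.37, lie below it.

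A second list held 50 further genes of DNA replication that are not among the 45. Of these, 35 were lower and 2 higher on day 5 (median −0.52) and 38 lower and 0 higher on day 7 (median −0.48). Over all genes tested, 17.9% were lower and 14.8% higher on day 5, and 25.8% and 23.4% on day 7. On day 7 the largest changes were those of *Dtl*, which directs *Cdt1* to degradation, at −1.49 (SE 0.0852, limma adjusted p = 1.01e-06), of the histone chaperone *Asf1b* at −1.27 and of *Pole4*, a small subunit of polymerase epsilon, at −1.23. *Dtl* was at 18.8 ± 0.554 scaled TPM in the controls and 6.70 ± 0.783 in the knockdown (SD, n = 4). The 2 higher on day 5, named after their values were seen, were *Pold4* at 0.61 and *Pole3* at 0.25, which encode small subunits of polymerases delta and epsilon.

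Among 30 regulators of the E2F and DREAM system, which turns these genes on and off in the cycle, 19 were lower on each day, with 2 higher on day 5 and 6 higher on day 7 (medians −0.41 and −0.35). Over all genes 17.9% were lower and 14.8% higher on day 5, and 25.8% and 23.4% on day 7; the 6 of 30 higher on day 7 were near the share over all genes. *Ccne2* and *Ccna2*, the cyclins E2 and A2 that drive S phase, were lower on day 7 at −1.31 and −1.28, and *Cdkn1c*, an inhibitor of the cyclin-dependent kinases, at −1.44 (limma adjusted p = 1.33e-05). *Cdkn1c* was at −0.18 on day 5 and did not pass. The largest rises on day 7 were those of the pocket proteins *Rbl2* and *Rb1*, which restrain E2F, at 0.74 and 0.64, and of the inhibitor *Cdkn1a* (p21) at 0.69, with 194 ± 12.0 scaled TPM in the controls and 314 ± 16.1 in the knockdown (SD, n = 4). On day 5 *Cdkn1a* was higher by 0.35 (limma adjusted p = 0.00376), as was *Lin52* of the DREAM complex by 0.28, named after its value was seen, and *Rbl2* and *Rb1*, at 0.18 and 0.16, did not pass.

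All 20 genes of a mitosis list were lower on both days, against 17.9% of all genes tested on day 5 and 25.8% on day 7. Their medians were −0.94 on day 5 and −1.40 on day 7, beside −0.65 and −0.74 for the 45 replication genes. On day 7 the cyclin gene *Ccnb2* was lower at −1.84, and *Birc5* (survivin) and the mitotic kinase *Cdk1* both at −1.72. In single libraries of the knockdown the median over the mitosis genes was −0.85 to −1.05 on day 5 and −1.27 to −1.55 on day 7, lower in each library than the median over the replication genes.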

How the data were processed

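PolyA RNA of 16 libraries of mouse NSC (4 groups of 4) was sequenced, aligned to mm10 with STAR and quantified with RSEM by the authors. The deposited tables, 1 for each day, give TPM per gene and library, that is, transcript abundance corrected for transcript length, beside the authors' DESeq2 base mean (a normalized signal averaged over libraries), used here as a guide to depth alone, and their own fold changes and p-values, which were not used. TPM keep no read counts, so library depth is unknown and no interval that needs it is given. TPM summed to the same total in each library, with 25612 to 29126 genes above 0.

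Columns were assigned to libraries by day, shRNA and replicate number. 3 lines of day 5 name no gene and stayed out of the fits, and 106 lines stayed out of the fit of both days. Each library was divided by its median ratio to the geometric mean over genes of at least 1 TPM in all libraries of the fit (0.920 to 1.11 on day 5, 0.991 to 1.01 on day 7), which gives scaled TPM. The day 5 factors differed by shRNA, with 1.02 to 1.11 in the controls and 0.920 to 1.01 in the knockdown. In the fit of all 16 libraries they differed by day, with 0.845 to 1.02 on day 5 and 1.07 to 1.10 on day 7. limma 3.58.1 (R 4.3.3; lmFit and eBayes with a trend) was run on log2(scaled TPM + 0.1) over genes whose mean reached 0.1 TPM, with two-sided p-values adjusted by Benjamini-Hochberg over all genes tested and a threshold of 0.05. shRNA RUS was compared with shRNA CON within each day (8 libraries), and the days and the difference between the days in 1 fit of all 16. Promoter words were searched in RefSeq windows of GRCm38.p6 with Python 3.11.15, and gene positions were read from GENCODE vM21.

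The 45 genes and the other lists were chosen with earlier results of these data known. Values are given library by library for *Pcna*, for the genes with the largest and the smallest absolute log2 fold change of each role on day 7 and for every gene not lower on at least 1 day, and the others are given by fold change. Of the other lists, the 3 largest changes in each direction on day 7 are named among called genes of at least 1 TPM. Alternatives were another value added before the log2 (0.01 or 1), no filter or 1 TPM, quantile normalization, TPM as deposited, the 75th percentile for scaling, the replicate number as a block, eBayes with no trend, 1 fit over all 16 libraries, and leaving out each library in turn. The fits were also run on simulated data with as many planted rises as falls. Such data cannot test the choice of scaling, on which some of the results depend.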

Additional observations from a re-analysis of the deposited data

Results flagged for a closer look

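In 7 of the 180 groups of 4 libraries (45 genes in 4 groups), 1 library stood apart from the other 3 by more than Dixon's critical value, where chance gives about 1 in 20 groups. Of these, 4 were knockdown groups of day 7. *Orc1* was at 2.52 scaled TPM in replicate 4 of shRNA RUS on day 7, with 1.66 to 1.76 in the other 3. In that replicate *Prim2* was at 11.9, with 13.5 to 13.8 in the others. *Pole* was at 5.08 in replicate 1 of that group (5.55 to 5.61 in the others), and *Tyms* at 17.8 in replicate 2 (21.3 to 22.0). In the controls of day 7, *Mcm2* was at 35.1 in replicate 4 (40.2 to 40.6) and *Rpa1* at 92.2 in replicate 3 (87.9 to 88.6). In the knockdown of day 5, *Rrm1* was at 64.4 in replicate 1 (56.8 to 57.8).

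For 15 genes the knockdown effect differed between day 5 and day 7 in limma's test of the difference itself. It was more positive on day 7 for *Orc1* (1.25 on the log2 scale, limma adjusted p = 0.0057) and *Prim1* (0.38, 0.0129). It was more negative for *Gmnn* (−0.78), *Gins2* (−0.71), *Gins4* (−0.61), *Rfc2* (−0.46), *Rfc3* (−0.43), *Pcna* (−0.40), *Rpa2* (−0.40), *Tyms* (−0.39), *Rpa1* (−0.38), *Rrm1* (−0.36), *Rpa3* (−0.27), *Tk1* (−0.25) and *Rrm2* (−0.25), with limma adjusted p from 1.58e-05 (*Gins4*) to 0.0456 (*Rrm2*). The 1 library of *Orc1* named above is among those behind the value of *Orc1*, and its part was not tested beyond the fits that left out 1 library, all of which called *Orc1*.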

How the results depend on the processing

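On each day the count of replication genes lower in the knockdown kept within 34 to 41 (day 5) and 41 to 44 (day 7) over 18 settings, and no setting called one higher. The median moved to −0.81 with TPM as deposited and −0.73 with scaling to the 75th percentile on day 5, and to −0.68 with 1 added before the log2 and −0.80 with the 75th percentile on day 7. Leaving out 1 library gave 35 to 36 lower and medians of −0.68 to −0.61 on day 5 (5736 to 8522 of all genes called), and 41 to 42 and −0.76 to −0.71 on day 7 (11123 to 11663). With TPM as deposited the calls of all genes on day 5 were 1768 higher and 6037 lower, beside 3349 and 4034, with a median of −0.21 over all genes. That scaling made *Orc6*, *Gins3*, *Rfc3* and *Rpa1* pass as lower on day 5, and turned *Gins4* to −0.085 and *Rfc2* to −0.10; the 75th percentile turned them to −0.0049 and −0.024, and quantile normalization *Rfc2* to −0.078. Leaving out 1 library, *Pold2* on day 5 ran from −0.12 to 0.0075 (0.0065 and 0.0075 without knockdown replicate 1 or 4), and *Cdkn1c* from −0.30 to 0.020 (0.020 without control replicate 4 and 0.00083 without knockdown replicate 4).

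The comparisons of the days turned on the scaling. In the control, TPM as deposited gave 14 higher and 7 lower (median 0.040), and the 75th percentile 10 higher (median −0.037), while all genes had 8573 higher and 3434 lower, and 7350 and 4076, beside 6394 and 5133. In the knockdown, TPM as deposited gave 17 higher and 12 lower (median 0.051), quantile normalization 5 higher (median −0.32) and the 75th percentile a median of −0.16, with 11801 and 3545, 7128 and 6782, and 9324 and 5063 of all genes higher and lower, beside 8317 and 6135. For the difference, TPM as deposited gave 6 more positive and 8 more negative (median 0.021), and quantile normalization 1 more positive, with 5700 and 2053, and 3560 and 3361, of all genes more positive and more negative, beside 3626 and 3464. Under TPM as deposited *Mcm6* turned to 0.040 in the control, and in the knockdown *Mcm6* turned to 0.15, *Gins1* to 0.10, *Rfc1* to 0.037, *Pola2* to 0.11, *Pole* to 0.051, *Fen1* to 0.0099 and *Tyms* to 0.11; the cause was not tested. Leaving out 1 library gave 5 to 7 higher, 12 to 17 lower and medians of −0.13 to −0.10 in the control, 8 to 9, 25 to 28 and −0.28 to −0.25 in the knockdown, and 2 to 4, 9 to 13 and −0.20 to −0.10 for the difference (10598 to 12054, 13753 to 14530 and 6138 to 8292 of all genes called).

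Same-numbered libraries of the 2 shRNAs did not deviate together (correlations of −0.25 to −0.016 on day 5 and 0.016 to 0.10 on day 7), so the numbers were not taken to pair them. With the replicate number as a block, 34 genes were lower on day 5 and 41 on day 7, without *Cdc45*, *Pola2*, *Rpa3* and *Rfc1*, and 2231 and 5330 of all genes were higher and 2735 and 5895 lower. With the replicate block within day, 1 gene had a more positive effect on day 7, *Orc1*, and 10 a more negative one, without *Rpa3*, *Rrm2* and *Tyms* (2561 and 2647 of all genes). The number of reads behind each value is unknown, which limits what can be said of low genes such as *Orc1*.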
